A study of Mus musculus with 9 samples.

Results

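The MR-only CORT sites kept after washout were the mineralocorticoid receptor (MR) peaks found after corticosterone (CORT) that shared at least 1 bp with an MR peak found after CORT was washed out, and no base with a glucocorticoid receptor (GR) peak found after CORT. They were selected on the 3 peak lists alone, on chromosomes 1 to 19 and X and without the coding exons of Nr3c1 and Nr3c2, which encode GR and MR. They numbered 797 of 14530 MR CORT peaks considered (5.49%). An MR washout peak overlapped 24.4% of the MR CORT peaks and 52.5% had no GR CORT peak. These 3 shares are what the rule counts and were not tested.

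The cells were N2A, a mouse neuroblastoma line, transiently transfected with both EGFP-GR and mCherry-MR. Every receptor library thus came from 1 line and from tagged receptors made by plasmids. The paper states that N2A cells express no MR but some GR of their own, with minimal activity on a reporter. That GR carries no tag, so the GR lists cover tagged GR only, and MR-only here means without a peak of tagged GR. The methods of the study describe rat receptors and the deposited description mouse receptors. Cells received vehicle for 20 minutes, 100 nM CORT for the same time, or that CORT exposure and then 2 washes and 40 minutes in medium free of CORT (washout). ChIP-nexus, in which an exonuclease trims precipitated DNA to the edge of the bound protein, was performed through EGFP for GR and mCherry for MR, with input chromatin for each treatment. Replicates had been pooled before peaks were called, so each receptor and treatment has 1 list, no value has a replicate error, and each test takes sites as its units and compares these libraries. The paper also called peaks in single CORT replicates. Far fewer sites recurred there in more than 1 replicate than the pooled lists hold, and the drop was larger for GR. Those calls were not used here.

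MR and GR are steroid receptors that enter the nucleus once hormone binds, and each can bind DNA as a dimer at the glucocorticoid response element (GRE), an inverted repeat written here as AGAACA, 3 bases, TGTTCT. MR binds corticosterone more tightly than GR does and can stay occupied at hormone levels at which GR is mostly free. Both receptors can also be brought to DNA by, or beside, other factors, among them AP-1, GATA and homeodomain proteins. Phox2a is a homeodomain factor of noradrenergic neurons, the lineage from which neuroblastoma derives.

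The sequences in the first set are the 8 members with the highest MR washout −log10 p among those whose best GRE position had at most 2 mismatches in its 12 fixed bases. They show the element at strong members that had a close match. Each is written 5′ to 3′ on the plus strand of GRCm38 with the GRE in capitals, and is named by the gene that holds the summit or, failing that, by the nearest protein-coding start.
Sar1b, chr11:51793255-51793305: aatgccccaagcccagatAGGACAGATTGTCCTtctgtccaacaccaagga
Map3k9, chr12:81806941-81806991: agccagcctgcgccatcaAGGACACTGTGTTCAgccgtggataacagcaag
Klf9, chr19:23056994-23057044: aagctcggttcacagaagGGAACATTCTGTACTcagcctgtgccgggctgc
Ptprt, chr2:162065746-162065796: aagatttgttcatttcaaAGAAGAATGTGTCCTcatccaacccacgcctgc
Klf9, chr19:23135074-23135124: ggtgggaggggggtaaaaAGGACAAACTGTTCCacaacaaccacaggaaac
Ric3, chr7:109082838-109082888: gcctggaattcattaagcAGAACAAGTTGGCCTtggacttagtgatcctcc
Myh14, chr7:44634184-44634234: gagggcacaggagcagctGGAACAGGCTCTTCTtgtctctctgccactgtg
Tnip1, chr11:54931607-54931657: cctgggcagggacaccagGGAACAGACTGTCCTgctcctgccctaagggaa

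Of these 8 elements, 7 had 1 mismatch in each arm, and the element at Ric3 had a perfect left arm and 2 mismatches in the right. The Sar1b element lay 2 bp from the MR CORT summit, 138 bp from the nearest GR CORT peak. Ptprt encodes a receptor tyrosine phosphatase, Ric3 a chaperone of nicotinic acetylcholine receptors and Tnip1 an inhibitor of NF-κB signalling. Klf9, a zinc finger factor induced by glucocorticoids, is the nearest protein-coding start for a pair of these members. They lay 6117 and 84210 bp from that start, within the noncoding genes 2410080I02Rik and C330002G04Rik. The Klf9 member nearer the start had a −log10 p of 5.20 after CORT and 17.8 after washout, and the farther one 11.1 and 18.0.

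Not every strong member carried such an element. The next set is 2 of the 3 members with the highest washout −log10 p among those whose best GRE position had 5 or more mismatches and whose printed bases lay outside exons, with that position in capitals.
4931428L18Rik, chr1:31129890-31129970: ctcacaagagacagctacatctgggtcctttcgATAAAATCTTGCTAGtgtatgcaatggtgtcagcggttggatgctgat
Zfhx3, chr8:108742820-108742900: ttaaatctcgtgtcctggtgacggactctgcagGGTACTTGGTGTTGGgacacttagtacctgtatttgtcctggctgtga

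Zfhx3, a homeodomain and zinc finger factor, held the second of these, with a −log10 p of 16.4 after CORT and 13.9 after washout, and its summit lay 6 bp from the centre of the best GRE position. The 4931428L18Rik site was fully repeat-masked and also overlapped a vehicle peak.

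The members were sites of middling strength after CORT. Their MACS2 −log10 p after CORT, the evidence of a peak over input, had a median of 9.27, with quartiles of 7.83 and 11.98 and a range from 4.83 to 26.2. The 6826 MR-only sites that were lost (no washout peak) had a median of 7.83, and the 2747 kept sites with a GR peak a median of 14.9. The value grows with read depth and the files hold no read counts, so it ranks peaks within a list and does not measure an amount of binding. In the CORT list, 332 members (41.7%) ranked in the weaker 50% of all MR CORT peaks and 44 (5.52%) in the strongest 10%. The kept share of MR-only sites went from 5.25% in the weakest of 5 bands of −log10 p to 35.4% in the strongest, and that of sites with GR from 13.3% to 69.3%.

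After washout the members had a median −log10 p of 9.01, with quartiles of 7.69 and 10.9 and a highest value of 31.0, against a median of 10.5 at kept sites with GR. Strength after CORT and strength after washout were loosely related among the members, over a restricted range. Spearman's rho between both values was 0.17 over the 797 members and 0.44 over the kept sites with GR, as a description of sites that share both libraries. Both groups had to pass the peak threshold in both lists. The CORT quartiles were 7.83 and 11.98 at members and 10.6 and 19.6 at kept sites with GR. The part of this narrower range in the lower rho was not tested.

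**Figure D1:**
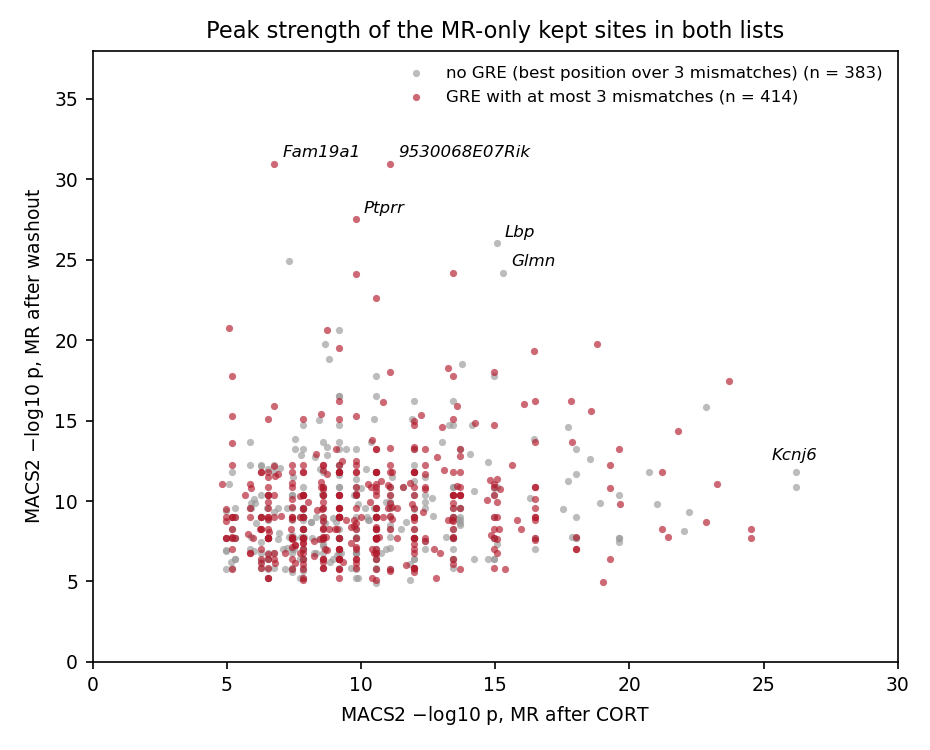
MACS2 −log10 p of each of the 797 MR-only kept sites after CORT (horizontal axis) and after washout (vertical axis), coloured by whether a GRE with at most 3 mismatches lay within 100 bp of the summit. The highest washout values, at Fam19a1 and 9530068E07Rik, came with CORT values of 6.77 and 11.1, and the highest CORT value, 26.2, which Kcnj6 shared with Gm826, came at Kcnj6 with a washout value of 11.8.

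The rule needs a shared base between narrow peaks, which limits how far apart the CORT and washout summits of a member can lie. Their distance had a median of 18 bp, with quartiles of 8 and 38 bp, against a median of 17 bp at kept sites with GR, and the summits were within 50 bp of each other at 657 members (82.4%) and over 100 bp apart at 28 (3.51%). One washout peak overlapped each of 793 members and 2 washout peaks each of the other 4. A washout peak shared with another MR CORT site was found at 39 members.

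Just inside the rule, 8 members shared only 1 to 3 bp with their washout peak, with a median −log10 p of 7.83 after CORT and 8.29 after washout. Just outside it, 5 MR-only sites lay 0 to 3 bp from a washout peak without sharing a base, with a median of 7.83 after CORT. On the GR side, 11 members lay 0 to 3 bp from a GR CORT peak (median 6.54 after CORT and 9.01 after washout), and 2 kept sites shared 1 to 3 bp with one and were left out (7.42 and 7.87).

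The GRE was more frequent at the members than at MR-only sites that were lost. At least 1 GRE with at most 3 mismatches lay within 100 bp of the summit at 414 of 797 members (51.9%, 95% Wilson interval 48.5% to 55.4%) and at 2524 of 6826 lost sites (37.0%, 35.8% to 38.1%). These intervals cover counting error only. By a two-sided Fisher's exact test of these counts the odds ratio was 1.84 (exact 95% interval 1.59 to 2.14, adjusted p = 2.25e-14). Over all 14530 MR CORT peaks the share was 39.9%, and in windows of the same width 1000 bp to each side of the members it was 17.2%. Of 18 motifs compared with the lost sites, 5 differed after adjustment (27.8%), all more frequent at the members.

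Kept sites with GR had a GRE share nearer to that of the members, 1317 of 2747 (47.9%, 46.1% to 49.8%). In the same exact test the odds ratio of members to these sites was 1.17 (0.999 to 1.38, adjusted p = 0.159) and did not pass the threshold of 0.05. It passed in a Mantel-Haenszel test within the bands of MR CORT −log10 p, with 1.31 (adjusted p = 0.0143), and when members had no GR CORT peak within 500 bp, with 1.48 (exact test, adjusted p = 0.000125).

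**Figure D2:**
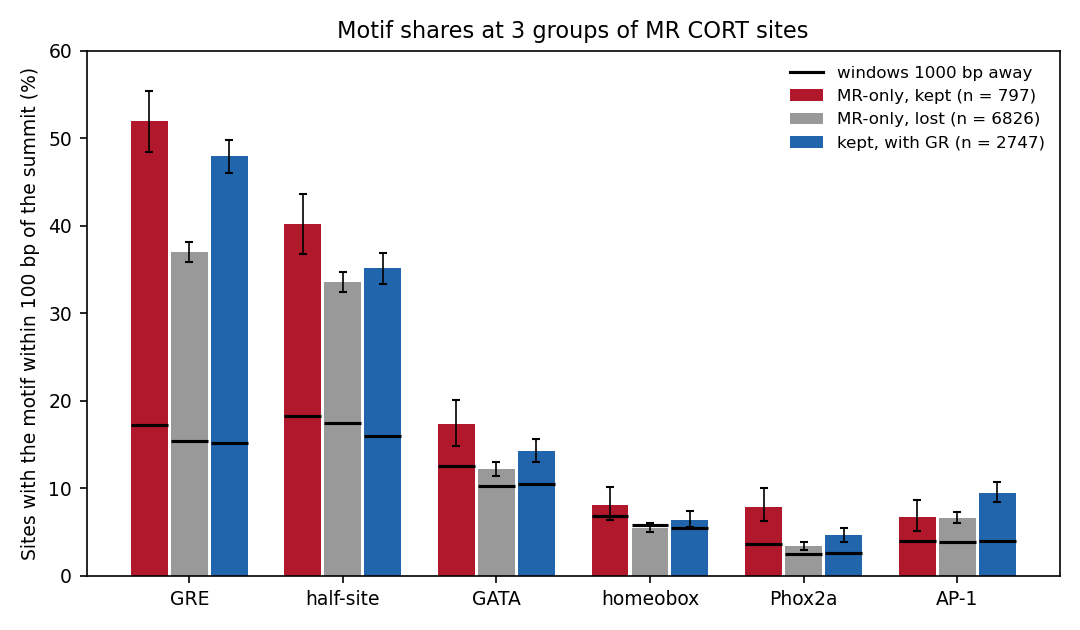
Percentage of sites with each of 6 motifs within 100 bp of the MR CORT summit, for MR-only kept, MR-only lost and kept sites with GR; error bars are 95% Wilson intervals and black lines mark the share in windows 1000 bp away. GRE shares were 51.9%, 37.0% and 47.9%, and Phox2a shares 7.90%, 3.35% and 4.62%.

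In each of the 5 bands of strength the GRE share was higher at members than at lost sites. In the weakest of the 5 bands 61 of 115 members had a GRE (53.0%) and 734 of 2077 lost sites (35.3%). In the strongest band the counts were 71 of 124 members (57.3%) and 79 of 226 lost sites (35.0%). The lowest share among the members, 43.3% in band 2, stood beside 38.4% at lost sites of that band. Pooled over the bands, the odds ratio of members to lost sites was 1.81. By washout −log10 p, the strongest 266 members had a GRE share of 57.9% (51.9% to 63.7%) and the weakest 266 had 48.5% (42.6% to 54.5%).

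**Figure D3:**
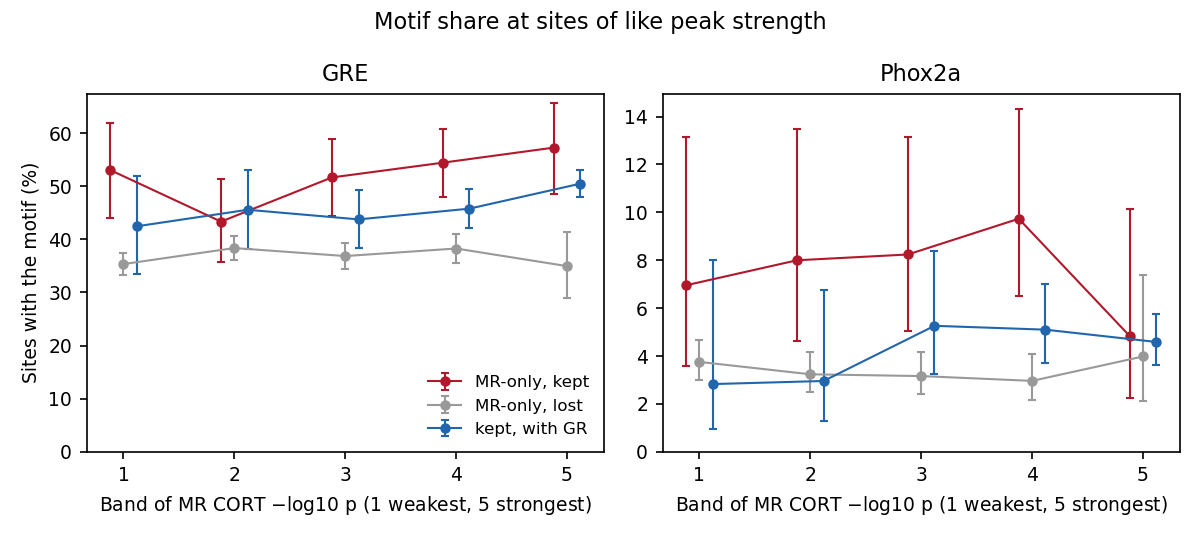
Percentage of sites with a GRE (left) and with a Phox2a motif (right) in each of 5 bands of MR CORT −log10 p, from weakest to strongest, with 95% Wilson intervals. The GRE share of the MR-only kept sites was between 43.3% and 57.3%, and that of the MR-only lost sites between 35.0% and 38.4%, in every band.

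Closer matches were more unevenly divided. A position with at most 2 mismatches was present at 153 members (19.2%, 16.6% to 22.1%), 717 lost sites (10.5%, 9.80% to 11.3%) and 441 kept sites with GR (16.1%, 14.7% to 17.5%). At most 1 mismatch was found at 34 members (4.27%, 3.07% to 5.90%), and at 1.77% of lost sites and 3.49% of kept sites with GR. A perfect element occurred at 5 members, 4 lost sites and 9 kept sites with GR. At the other end, 108 members had no position with fewer than 5 mismatches, of which 3 had 6.

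**Figure D4:**
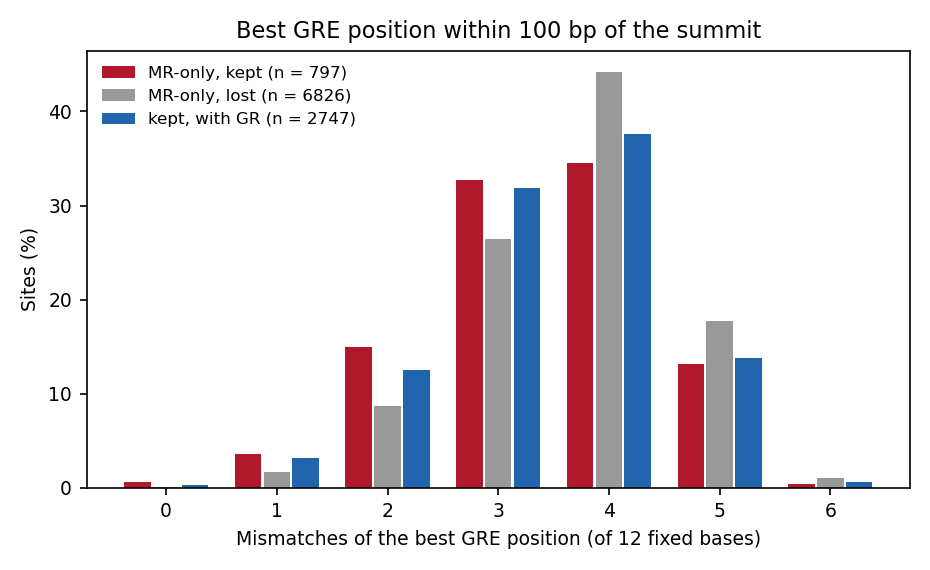
Percentage of sites by the number of mismatches of their best GRE position, out of 12 fixed bases, within 100 bp of the summit. The MR-only kept sites were divided mainly between 3 mismatches (32.7%) and 4 mismatches (34.5%), and 44.2% of the MR-only lost sites had 4.

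GREs sat under the summits of the members. Within 20 bp of the CORT summit they occurred at 8.98 per 1000 positions, and in windows 1000 bp away at 1.03. The same rates were 4.78 and 0.890 at lost sites, and 7.71 and 0.880 at kept sites with GR. In members with a GRE, its centre lay a median of 15 bp from the CORT summit and 20.5 bp from the washout summit. It was within 20 bp of the CORT summit at 255 of these 414 members (61.6%) and of the washout summit at 207.

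The half-site AGAACA was present at 320 members (40.2%), 33.5% of lost sites, 35.1% of kept sites with GR and 34.3% of all MR CORT peaks. By the exact test the odds ratio was 1.33 against lost sites (1.14 to 1.55, adjusted p = 0.00216) and 1.24 against kept sites with GR (1.05 to 1.46, adjusted p = 0.0548). The call against lost sites was lost with a −log10 q of at least 5 in each list, where the exact test gave 1.17 (adjusted p = 0.300). Half-sites are in part arms of GREs, since 143 of the 414 GREs at members contained a perfect arm. Among the 383 members without a GRE, 96 had a half-site (25.1%, 20.99% to 29.6%), and 24.2% (22.9% to 25.5%) of lost sites without a GRE did. Neither element was found at 287 members (36.0%, 32.8% to 39.4%), 47.8% of lost sites and 39.9% of kept sites with GR.

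The paper had already reported slightly more Phox2a and GATA3 motifs, and slightly fewer AP-1 and NF-1 motifs, at MR-only than at overlapping sites. The choice of these motifs was thus not independent of these data. The Phox2a motif, a pair of facing homeodomain sites, was more frequent at the members than at both other groups, though most members lacked it. With at most 1 mismatch it lay within 100 bp of the summit at 63 members (7.90%, 6.23% to 9.99%), 229 lost sites (3.35%, 2.95% to 3.81%) and 127 kept sites with GR (4.62%, 3.90% to 5.47%), and at 3.85% of all MR CORT peaks. Windows 1000 bp from the members held it in 3.64% of cases. Fisher's exact test gave an odds ratio of 2.47 against lost sites (1.82 to 3.32, adjusted p = 2.35e-07) and of 1.77 against kept sites with GR (1.27 to 2.44, adjusted p = 0.00343). It was the only 1 of 18 motifs (5.56%) that differed from kept sites with GR after adjustment, while 4 (22.2%) were more frequent at members at an unadjusted p under 0.05. The following are the 4 members with the highest washout −log10 p among those with the motif, chosen after their values were seen, with the motif in capitals.
Fam19a1, chr6:96222709-96222789: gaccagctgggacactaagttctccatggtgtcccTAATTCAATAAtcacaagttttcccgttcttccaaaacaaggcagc
Thumpd3, chr6:113013478-113013558: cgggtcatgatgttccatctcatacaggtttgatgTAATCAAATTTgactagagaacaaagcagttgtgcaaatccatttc
Epm2a, chr10:11755665-11755745: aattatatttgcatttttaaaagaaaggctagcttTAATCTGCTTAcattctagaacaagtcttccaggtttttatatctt
A230072I06Rik, chr8:12328151-12328231: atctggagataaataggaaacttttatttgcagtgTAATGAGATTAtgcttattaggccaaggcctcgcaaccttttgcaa

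Each of these 4 motifs had 1 mismatch. All 4 members lay close to a GR CORT peak, at 99, 14, 223 and 132 bp in the order printed. Fam19a1, which encodes a secreted protein of the nervous system, held the first, 57 bp from the CORT summit, and a GRE with 3 mismatches was centred 4 bp from that summit on its other side. The other 3 lay over 5 kb from every gene and at least 31 bp from the summit. Thumpd3, Epm2a and A230072I06Rik, which name them, are only the nearest protein-coding starts, at 32739, 412217 and 49403 bp.

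Phox2a motifs flanked the summits of the members. They occurred at 0.0965 per 1000 positions within 20 bp of the summit (3 matches), at 0.565 from 20 to 50 bp (27 matches) and at 0.452 from 50 to 100 bp (36 matches), with 0.204 in windows 1000 bp away. Lost sites had 0.220 and 0.217 over the latter 2 distances and 0.141 in distant windows, and kept sites with GR 0.297, 0.309 and 0.140. The distant windows of the members thus also held more matches. The members had a lower GC content around the summit, with a median of 48.3% against 49.3% at lost sites and 50.7% at kept sites with GR, and its part in the motif results was not tested. Members without a GRE carried the motif at 37 of 383 (9.66%, 7.09% to 13.0%) and members with one at 26 of 414 (6.28%, 4.32% to 9.04%), intervals that overlap.

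The call rested on motifs with a mismatch, since a perfect Phox2a motif was present at 2 members (0.251%), 17 lost sites (0.249%) and 8 kept sites with GR (0.291%). Against kept sites with GR it was also lost when no GR CORT peak was allowed within 500 bp, where the exact test gave 1.43 (adjusted p = 0.193). In a window of 50 bp to each side it gave 1.65 (adjusted p = 0.221, exact test) and in a window of 200 bp 1.34 (adjusted p = 0.0809, exact test). Of the 217 members with a GR CORT peak within 1000 bp, 22 had the motif (10.1%, 6.79% to 14.9%). Of the 580 farther members, 41 had it (7.07%, 5.25% to 9.45%), as a description.

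**Figure D5:**
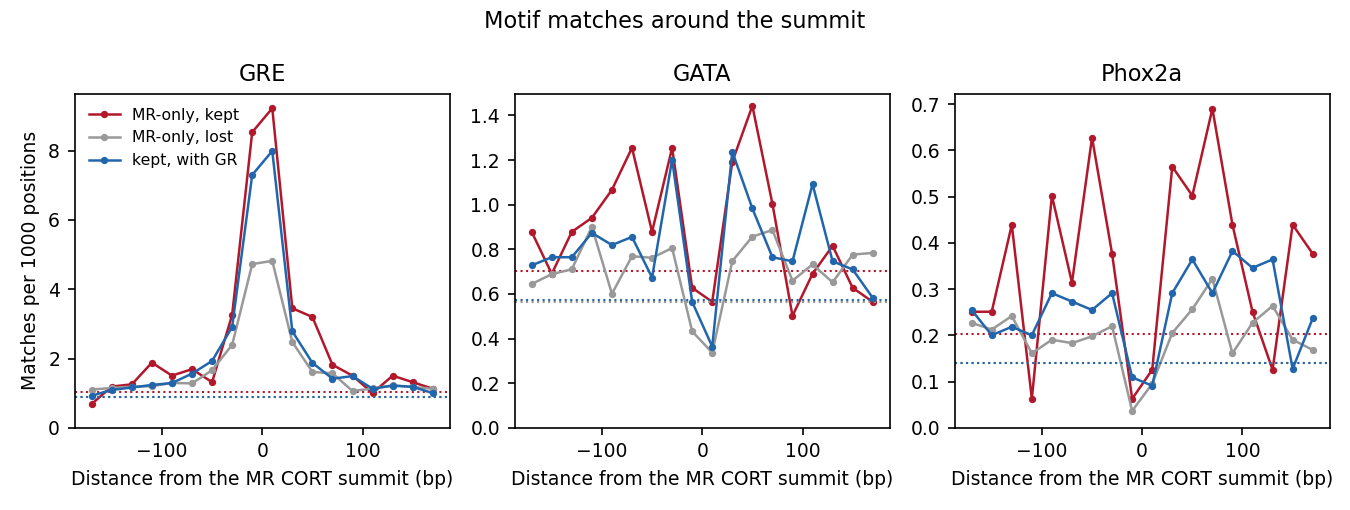
Matches per 1000 positions for the GRE, GATA and Phox2a motifs in bins of 20 bp around the MR CORT summit, for MR-only kept, MR-only lost and kept sites with GR; dotted lines mark the rate in windows 1000 bp away. The GRE peaked at the summit, whereas GATA and Phox2a matches dipped there and were more frequent beside it.

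GATA motifs (AGATAA), bound by GATA factors that include regulators of the sympathetic lineage, were present at 138 members (17.3%, 14.8% to 20.1%), 12.2% of lost sites and 14.3% of kept sites with GR, and at 12.6% of all MR CORT peaks. The exact test gave an odds ratio of 1.51 against lost sites (1.23 to 1.84, adjusted p = 0.000973) and 1.26 against kept sites with GR (1.01 to 1.56, adjusted p = 0.147). Windows 1000 bp from the members held the motif in 12.5% of cases and those of lost sites in 10.3%. Within 20 bp of the members' summits the rate was 0.579 per 1000 positions, and it rose to 1.19 from 20 to 50 bp.

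Simple homeobox motifs (TAATTA), which can overlap a Phox2a motif, were present at 64 members (8.03%), 5.45% of lost sites and 5.44% of all MR CORT peaks. By the exact test the odds ratio against lost sites was 1.51 (1.13 to 2.00, adjusted p = 0.0278). It was between 1.22 and 1.62 under 11 alternatives and missed the threshold in 7 of them, among them the bands of peak strength, with 1.43, and both other windows. Both a homeobox and a Phox2a motif were found at 23 members. The share in windows 1000 bp from the members was 6.78%.

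AP-1 motifs (TGACTCA) were present at 53 members (6.65%), 6.64% of lost sites, 9.50% of kept sites with GR and 7.83% of all MR CORT peaks. The exact test gave an odds ratio of 1.00 against lost sites (0.732 to 1.35, adjusted p = 1) and 0.679 against kept sites with GR (0.490 to 0.926, adjusted p = 0.0587). The odds ratio against kept sites with GR was between 0.620 and 0.802 under 11 alternatives and missed the threshold in most of them. With 1 site per 10 kb in each group it passed, with 0.620 (exact test, adjusted p = 0.0240). It also passed with GR peaks of −log10 q under 5 ignored, without chromosome 8, and without sites at vehicle, GR washout or input regions. The bands of peak strength, with 0.692, the −log10 q minimum of 5, with 0.725, and both other windows were among those that missed. NF-1 motifs showed no detectable difference. They were present at 9.16% of members, 8.38% of lost sites (odds ratio 1.10, 0.842 to 1.43), 9.14% of kept sites with GR (1.00, 0.752 to 1.32) and 8.61% of all MR CORT peaks. The slightly lower NF-1 share that the paper gave for MR-only sites came from known motif matrices and from sites not split by washout.

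A lack of overlap with a GR peak did not put every member far from GR. The nearest GR CORT peak lay a median of 12612 bp away, and within 1000 bp at 217 members (27.2%, 24.3% to 30.4%) and within 100 bp at 100 (12.5%, 10.4% to 15.0%). At lost sites, which the rule also kept free of GR overlap, the shares were 24.9% and 10.9%. Members with a GR CORT peak within 1000 bp had a GRE in 38.2% of cases (32.0% to 44.9%) and the 580 farther members in 57.1% (53.0% to 61.0%), as a description. Their median −log10 p was 9.17 and 9.74 after CORT and 8.63 and 9.01 after washout. A GR peak below the threshold of its list, or GR without the tag, was not detectable here. When GR peaks with a −log10 q under 5 were ignored the members numbered 1438.

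Most members lay in introns or far from genes. By GENCODE M21, 448 were intronic (56.2%), 188 lay over 5 kb from every gene (23.6%), 81 within 5 kb of a gene (10.2%), 50 in exons (6.27%) and 30 within 1000 bp of a protein-coding start (3.76%). The intronic share was similar elsewhere, 55.9% at lost sites and 52.1% at kept sites with GR. The promoter share was lower than at lost sites, where it was 6.84%, with an odds ratio of 0.533 by the exact test (0.353 to 0.778, adjusted p = 0.00157). It was also lower than at kept sites with GR, where it was 8.15%, with 0.441 (0.288 to 0.653, adjusted p = 5.35e-05, exact test). With a −log10 q of at least 5 in the 3 lists these were 0.782 (adjusted p = 0.386, exact test) and 0.658 (adjusted p = 0.134, exact test) and no longer passed.

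The share over 5 kb from every gene did not differ detectably, with an odds ratio of 1.09 against lost sites (0.910 to 1.30, exact test, adjusted p = 0.431) and 1.02 against kept sites with GR (0.846 to 1.24, exact test, adjusted p = 0.831). The members were spread over all 20 chromosomes, from 3.90% of the MR CORT peaks on chromosome 1 to 7.10% on chromosome 9. Another member lay within 10 kb at 75 of them.

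Few members coincided with signal seen without hormone. A vehicle peak of either receptor overlapped 4 members (0.502%), 4 lost sites (0.0586%) and 28 kept sites with GR (1.02%). Against lost sites the odds ratio was 8.60 (1.60 to 46.3, exact test, adjusted p = 0.0147). The 4 members, at 4931428L18Rik, Gm10800, Sfi1 and Gdi2, had summit windows that were between 92.5% and 100% repeat-masked. Border pairs that MACE called in input chromatin, which was not immunoprecipitated, overlapped 6 members (0.753%) and 21 lost sites (0.308%). The odds ratio was 2.46 (0.809 to 6.32, exact test, adjusted p = 0.112). A GR washout peak overlapped 2 members, at Gm10800 and Fam180a, and 160 kept sites with GR (5.82%), a difference that the choice of sites without GR bears on and that is given as a description. Without the 10 members at any of these regions, 787 remained and the GRE odds ratio against lost sites was 1.88.

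Border pairs of MR mark the edges of protected DNA. An MR CORT border pair overlapped 79 members (9.91%, 8.03% to 12.2%), 10.1% of all MR CORT peaks, 3.43% of lost sites and 29.9% of kept sites with GR, as a description. An MR washout pair overlapped 43 members (5.40%, 4.03% to 7.19%) and 3.32% of all MR CORT peaks, and 12 members had both. The pairs at members had a median size of 37 bp after CORT and 33 bp after washout. Members with an MR CORT border pair had a GRE in 41 of 79 cases (51.9%) and those without in 373 of 718 (51.9%), with median −log10 p after CORT of 11.1 and 9.17.

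The members with the highest washout −log10 p were mostly intronic. At 9530068E07Rik (chromosome 11, 52402308 to 52402415), which held the strongest, the value was 31.0 after washout and 11.1 after CORT. Its washout summit lay 84 bp from its CORT summit, outside the CORT peak, and a GR CORT peak lay 6 bp from that CORT peak. Fam19a1 (chromosome 6, 96222628 to 96222758) equalled the washout value of 31.0, with 6.77 after CORT and a GR CORT peak 99 bp away. Both had a GRE with 3 mismatches. Ptprr, which encodes a tyrosine phosphatase that acts on MAP kinases, followed with 27.6 after washout and 9.79 after CORT (chromosome 10, 116121243 to 116121281), and its GRE was centred 4 bp from the summit.

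Lbp, which encodes the lipopolysaccharide-binding protein, had 26.01 after washout and 15.1 after CORT, and Ift43, an intraflagellar transport gene, 24.9 and 7.30. Neither had a GRE with at most 3 mismatches, and both were over 100 kb from a GR CORT peak, at 132108 and 111319 bp. Glmn, Nt5c2 and Cfap46 each held an intronic member with a washout value between 24.1 and 24.2, of which the Glmn site lacked a GRE. The members nearest to Arap3 and Sar1b had 22.6 and 20.6, and the intronic member of Spdl1, a kinetochore gene, had 20.8 after washout and 5.10 after CORT, near the bottom of the CORT list. The twelfth was the repeat-masked site at Gm10800.

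A member lay in or within 5 kb of 506 of 21755 protein-coding genes (2.33%), of which 64 had more than 1. These genes had a median length of 80.2 kb, against 17.4 kb for all protein-coding genes, and 286 (56.5%) also had an MR CORT site with GR. Slit3 (ENSMUSG00000056427, chromosome 11), a secreted axon guidance ligand, had 4 members among 52 MR CORT sites, all intronic. Their −log10 p after washout was between 7.69 and 14.7, and the gene had 28 sites with GR and 20 MR-only sites that were lost. At the member with 14.7 the washout summit lay 104 bp from the CORT summit, outside the CORT peak, and a GR CORT peak lay 28 bp away. The other members were 148, 1983 and 2758 bp from a GR CORT peak. Gm20388, a gene model of 4434.88 kb on chromosome 8 that spans many others, also had 4, among 315 MR CORT sites.

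A further 7 genes had 3 members each, and the rule of 6 genes was extended to all that tied. Rab31, a GTPase of vesicle traffic, had 3 intronic members among 4 MR CORT sites and no site with GR. Their values were 7.42, 7.83 and 9.82 after CORT and 10.9, 10.4 and 11.8 after washout, and each lay at least 65881 bp from a GR CORT peak. Pdlim3, a cytoskeletal LIM domain gene, had 3 among 5 MR CORT sites, none of which overlapped a GR CORT peak. Its members had 22.0, 8.59 and 17.5 after CORT and 8.15, 7.21 and 9.51 after washout. The nearest GR CORT peak was 17571, 289 and 14996 bp from them, in that order.

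The 3 members of Tmprss6, a membrane serine protease gene, had 8.28 or less after washout, and a pair of them shared 1 washout peak. Plce1, a phospholipase C, had members at 15.1, 8.28 and 6.76, of which the first 2 had GREs with 2 mismatches. Zfhx3 had members at 13.9, 11.1 and 7.69, and Ptprt at 17.8, 10.6 and 7.05. Dgki, a diacylglycerol kinase, had 13.2 at its strongest.

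Several gene lists fitting the receptors and the cells were counted, each beside the 2.33% of all protein-coding genes. No list was tested. A listed gene counted only with a member in it or within 5 kb. Members farther away did not count, such as those named by Klf9, which is among the glucocorticoid-induced regulators. Of 28 glucocorticoid-induced regulators, 2 had a member (7.14%), Fkbp5 and Zbtb16. Fkbp5 encodes a co-chaperone that lowers the hormone affinity of GR, and its 2 intronic members had washout values of 8.28 and 6.76 among 15 MR CORT sites, 12 of them with GR. Zbtb16, a zinc finger factor, had 1 intronic member with a GRE of 2 mismatches, at 8.60 after CORT and 7.79 after washout. Fkbp5 was also the only 1 of 21 receptor chaperones with a member.

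Sodium transport genes, the classical targets of MR in kidney, had a member at 3 of 27 (11.1%). The listed genes had a median length of 34.0 kb, against 17.4 kb for all protein-coding genes, and the part of length in this share was not tested. Wnk1 and Stk39, kinases that act in sequence on cation-chloride cotransporters, had 7.83 and 9.17 after CORT and 11.8 and 9.01 after washout. Both had a GRE, that of Stk39 with 1 mismatch, and neither gene had an MR CORT site with GR. At Stk39 the nearest GR CORT peak was 714712 bp from the member.

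Of 22 transcription factors of sympathetic neuroblasts, 2 had a member (9.09%), Zfhx3 and Hand1. Hand1 had 1 MR CORT site, a member within 5 kb of the gene with 9.05 after CORT and 13.2 after washout. Of 25 catecholamine genes 1 did, Cyb561, an electron carrier of secretory vesicles, with 8.10 after washout. Of 23 circadian clock genes 1 did, Per2, with 6.23 after CORT and 8.28 after washout.

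Among neuronal genes, 4 of 94 potassium channel genes had a member. Kcnj6, an inward rectifier opened by G proteins, held a member with 26.2 after CORT, the highest value of all and shared with Gm826, and 11.8 after washout, with no GRE. Kcnmb4, a BK channel subunit, had 18.6 after CORT and 15.6 after washout at its only MR CORT site. Kcnip1 and Kcnq1 had washout values of 9.01 and 7.79 at most. Of 71 axon guidance genes 3 had a member, Slit3, Slit2 and Plxnc1, the last a semaphorin receptor with 2 members on 1 washout peak, 3 and 89 bp from a GR CORT peak. Syt9 was 1 of 17 synaptotagmins and Grik3 1 of 47 glutamate and GABA receptor genes, with washout values of 9.01 and 9.57.

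None of 18 AP-1 genes had a member, beside 2.33% of all protein-coding genes, and 9 of the 18 had an MR CORT site. So short a list cannot tell this count from that share.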

How the data were processed

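ChIP-nexus libraries were made from N2A cells for GR and MR after vehicle, CORT and washout, with input chromatin for each treatment. The authors pooled 3 replicates of each, aligned reads to GRCm38 (mm10) with Bowtie2, removed duplicates by barcode, kept reads with a mapping quality over 20, and called peaks with MACS2 (version 2.1.1.20160309 in the submitters' processing notes) at a false discovery rate of 0.05 against input and border pairs with MACE. Peak files as deposited give −log10 p and −log10 q for every peak, with −log10 q in the column headed fold enrichment, and a score that is 10 times −log10 q in the deposited column headed length. The deposited border pairs carry p-values by MACE, not used here; the GR CORT pairs, 139 in all, have none. The files hold no counts, so the depth behind each value was not computed here, and pooling leaves no replicate error. Depth and threshold decide which weak peaks are listed, and so which sites count as free of GR or lost.

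Peaks overlapped at 1 bp or more. Sites were compared within the MR CORT list, as members, MR-only sites lost after washout, and kept sites with GR. Motifs were searched on both strands within 100 bp of the summit in GRCm38. Sequences printed were taken outside exons and chromosome 18. Beside those in the text they were CRE (TGACGTCA), HAND2 E-box (CATCTG), ETS (CCGGAAG), SP/KLF (GGGCGG), TCF/LEF (ATCAAAG), RUNX (TGTGGT), TEAD (GGAATG), SOX (ACAAAG), HSF (GAANNTTC), CTCF core (AGGGGGC) and NF-1 (TTGGC, 5 bases, GCCAA, at most 2 mismatches). Their shares over all MR CORT peaks ran from 0.337% for CRE to 20.1% for the HAND2 E-box. None of them differed after adjustment. One more motif, and some genes, are not reported here.

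Shares have 95% Wilson intervals and odds ratios exact conditional intervals, by two-sided Fisher's exact tests in scipy 1.17.1, and bands a Mantel-Haenszel test in statsmodels 0.14.6. P-values were adjusted by Benjamini and Hochberg over 36 motif tests (18 motifs, 2 comparisons) and 10 tests of position and overlap, with a threshold of 0.05. Members, motifs and lists were chosen with earlier results of these data known. Genes named were those at the 12 members with the highest MR washout −log10 p, those with the most members, and up to 4 of each list by washout −log10 p. Alternatives changed the overlap, thresholds, distance to GR, window, mismatches, repeats, strength bands and spacing. The motif search and tests were first tried on simulated sites with known answers.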

Additional observations from a re-analysis of the deposited data

How the results depend on the processing

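Of 110 recalculated values for the main comparisons, 90 kept their direction and their side of the threshold, stayed within their interval, or were numbers close to the main one. Numbers of members or motifs were judged by a fixed factor and not by an interval. Thus 611 members for 797, with no GR CORT peak within 500 bp, and 3 motifs for 4 are among the 90. The members numbered 501 with a −log10 q of at least 5 in the 3 lists and 1438 when GR peaks with a −log10 q under 5 were ignored. The GRE odds ratio against MR-only lost sites stayed between 1.48 and 2.06 under 13 alternatives, with a highest adjusted p of 0.00216 in Fisher's exact tests. Against kept sites with GR it was between 1.02 and 1.48 and passed the threshold at 1.48 with no GR CORT peak within 500 bp and at 1.31 within bands of strength. The number of other motifs that differed from lost sites, 4, fell to 2 under that −log10 q minimum. It was 3 within bands, in a window of 50 bp and without sites over 50% repeat-masked. The number that differed from kept sites with GR, 1, became 2 under the −log10 q minimum, within bands, with 1 site per 10 kb and in a window of 200 bp, 0 in a window of 50 bp, and 3 without sites at vehicle, GR washout or input regions, an alternative added after seeing the data. The Phox2a odds ratio against kept sites with GR was 0.861 for perfect motifs, also added later. Under that −log10 q minimum the promoter odds ratios were 0.782 and 0.658, no longer past the threshold, the GR washout peak odds ratio against lost sites was 4.03, past it, and 1.40% of members had such a peak. With no GR CORT peak within 500 bp the vehicle peak odds ratio against lost sites was 6.66, no longer past the threshold, and the input border pair odds ratio against kept sites with GR was 1.11, on the other side of 1. The odds ratio for lying over 5 kb from genes against kept sites with GR was 0.987 without sites at control regions. The median summit distance was 15 bp with 50% of the shorter peak shared and 13 bp under the −log10 q minimum. The cause of these changes was not tested. No paired analysis was possible because each condition has 1 pooled list, and no replicate could be left out.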
